A study of Mus musculus with 6 samples.

Results

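The 8 genes described here are Adipoq, Retn, Cfd, Lpl, Cidec, Pparg, Lipe and Car3, a set typical of fat cells, followed on arrays of the mouse stomach antrum. They were found by their gene symbol in the platform annotation of the arrays, and every probe set with one of these symbols was kept. This gave 9 of the 22626 probe sets that are not Affymetrix controls, for 7 of the 8 genes and of the 12393 genes named on the array: 1 each for Adipoq, Retn, Cidec, Pparg and Lipe, and 2 each for Lpl and Car3. Cfd, the gene of complement factor D (adipsin), was on no probe set as the single symbol and is not analysed here. The arrays hold RNA of the antrum, the distal part of the stomach, from 3 strains with 2 arrays each: C57/BL6 and Beige, both titled as controls, and Satin. Beige mice are known for a mutation of Lyst, a regulator of lysosome-related organelles, and Satin mice for a mutation of Foxq1, a forkhead transcription factor that the study's description names. The sources used here give no age, sex or genetic background of the mice, and do not say whether each array holds RNA of 1 animal, so the p-values below measure the spread between arrays, which may be partly technical.

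White adipocytes store triglyceride in a large droplet and release fatty acids from it on demand. The nuclear receptor PPARgamma (Pparg), together with C/EBP factors, switches on the genes of droplet coating, fat uptake and hormone release as these cells mature. The antrum itself is a mucosa on layers of smooth muscle, and fat lies along the outer surface of the stomach where its vessels enter, so whole antrum RNA can hold adipocyte RNA beside that of the stomach wall. Lpl and Pparg are also made by other cells, among them macrophages and muscle for Lpl and epithelium for Pparg, and Car3 is abundant in skeletal muscle and liver as well as in fat. In whole tissue RNA, fewer cells of a type and less RNA per cell cannot be told apart.

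RefSeq promoters of the assembly GRCm38.p6 were at hand for 6 of the 8 genes (10 promoters, not Lpl and Car3), and the 250 bases before each start site were searched on both strands for 7 motifs. The motifs were the PPAR response element AGGTCANAGGTCA (in 0.0335% of 32851 mouse promoters of the same length), its half-site AGGTCA (14%), the C/EBP palindrome TTGCGCAA (0.164%), the looser C/EBP core TTGCNNAA (9.56%), CCAAT (33.8%), TATAAA (12.4%) and the E-box CACGTG (6.02%). AGGTCANAGGTCA holds the half-site, and TTGCNNAA takes in TTGCGCAA. The promoters of 3 genes are shown, which were among the members lowest on 1 or other array. Those of Lipe and Pparg, also lowest on Satin 1, are not written out. They are written 5′ to 3′ on the strand of the gene and end at the base before the start site, and capitals mark motif matches.
Adipoq, chr16:23146286-23146535, plus strand: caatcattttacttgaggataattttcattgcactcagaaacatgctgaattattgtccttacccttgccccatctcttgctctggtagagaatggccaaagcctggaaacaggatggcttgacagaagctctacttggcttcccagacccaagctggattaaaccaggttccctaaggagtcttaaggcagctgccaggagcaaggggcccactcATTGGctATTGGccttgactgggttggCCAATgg
Retn, chr8:3655520-3655769, plus strand: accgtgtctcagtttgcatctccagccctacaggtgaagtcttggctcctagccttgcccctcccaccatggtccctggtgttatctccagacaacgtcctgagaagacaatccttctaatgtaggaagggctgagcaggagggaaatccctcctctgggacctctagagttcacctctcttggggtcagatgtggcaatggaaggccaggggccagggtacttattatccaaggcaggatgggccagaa
Cidec, chr6:113434765-113435014, minus strand: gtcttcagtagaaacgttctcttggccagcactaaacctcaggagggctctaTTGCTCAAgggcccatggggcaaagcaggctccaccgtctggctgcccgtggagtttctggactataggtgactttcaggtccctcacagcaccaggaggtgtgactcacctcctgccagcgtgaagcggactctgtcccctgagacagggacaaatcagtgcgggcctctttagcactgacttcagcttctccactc
Cidec, chr6:113435761-113436010, minus strand: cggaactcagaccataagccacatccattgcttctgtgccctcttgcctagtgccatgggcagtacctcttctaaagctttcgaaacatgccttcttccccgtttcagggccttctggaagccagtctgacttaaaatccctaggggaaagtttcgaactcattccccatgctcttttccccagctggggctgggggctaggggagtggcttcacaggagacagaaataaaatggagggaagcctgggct
The Adipoq promoter held 3 CCAAT matches, 7, 27 and 34 bases before the start site. The first of the Cidec promoters held a C/EBP core 198 bases before its start, while the other one and the Retn promoter held none of the 7 motifs. Among the promoters not written out, a Lipe promoter held the E-box 155 bases before its start. Pparg promoters held the half-site AGGTCA 28 and 9 bases before their starts, and also the C/EBP core, CCAAT and TATAAA. None of the 10 promoters held the full PPAR response element. A match is a description of letters and not a binding site.

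The array titles name the tissue as antrum. Gkn1, a protein secreted by gastric surface mucous cells, had signals of 9123.4 to 10644.7 on the 6 arrays. Other genes of the same antral epithelium list differed between arrays. Muc5ac had 7485.4 to 7948.7 on the control arrays and 471.8 and 435 on Satin 1 and Satin 2. Gast had 1456.9 to 5086.6 and Atp4a 1691.8 to 6840.5. These values do not tell the antrum from other parts of the stomach. Median signals of the arrays ran from 38.2 to 74.15, and values were therefore compared as log2(signal + 32) after quantile normalization, a scale that understates the changes of dim genes. The Gapdh signal at the 5′ end divided by that at the 3′ end, a ratio that falls when RNA is broken or copied short, was 0.526 on BL6 1 and 0.988 to 1.18 on the other 5 arrays. Of the cell type lists, pancreas acinar genes (11 tested) averaged 7.13, 7.61 and 7.19 on BL6 1, Beige 1 and Satin 1 and 12.92, 10.03 and 11.97 on BL6 2, Beige 2 and Satin 2. Liver genes (11 on the array, of which 8 were tested) averaged 8.18 on Satin 2 and 6.52 to 6.72 elsewhere.

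Adipoq and Car3 differed widely between the 2 BL6 arrays. On BL6 replicate 1 (BL6 1) they lay at -3.62 and, for the brighter Car3 probe set, -4.15 log2 units from the median of the other arrays, and Cidec and Retn were low there too. Satin 1 was low for Adipoq, Lipe and Retn. Lpl and Pparg did not follow this order of arrays, and none of the genes passed the test between strains.

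Adipoq encodes adiponectin, a hormone made by fat cells. Its deposited signal was 1.2 on BL6 1 and 258.2 on BL6 2, against 317.1 and 427.6 for Beige and 149.6 and 469.1 for Satin. After normalization the values were 5.05 and 8.48 for BL6, 8.69 and 8.70 for Beige, and 7.12 and 8.67 for Satin. BL6 1 was far below all others, Satin 1 came next, and 4 arrays lay close together. BL6 1 differed by -3.62 log2 units from the median of the other 5 arrays. Its value was near the lowest that log2(signal + 32) can give and below the level of 5.74 used to filter probe sets by their mean, so the size of this difference depends on the pseudocount of 32. The means were 6.76 ± 2.43 in BL6, 8.70 ± 0.01 in Beige and 7.89 ± 1.10 in Satin (SD, n = 2 arrays each). Satin minus the mean of both control strains was 0.16 (SE 0.79, 95% interval -1.62 to 1.95), with a limma adjusted p of 0.960.

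Retn encodes resistin, another secreted product of mouse fat cells. Signals were 39.6 and 77.1 (BL6), 104.1 and 171.5 (Beige) and 48.2 and 133.5 (Satin). The normalized values of 6.22 and 7.05 for BL6, 7.25 and 7.61 for Beige, and 6.04 and 7.16 for Satin placed the same arrays, BL6 1 and Satin 1, at the bottom, here with Satin 1 the lower. The arrays of Satin and BL6 overlapped, and all 4 lay below both Beige arrays. Satin minus both controls was -0.44 (SE 0.35, 95% interval -1.24 to 0.36, limma adjusted p = 0.707).

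**Figure D1:**
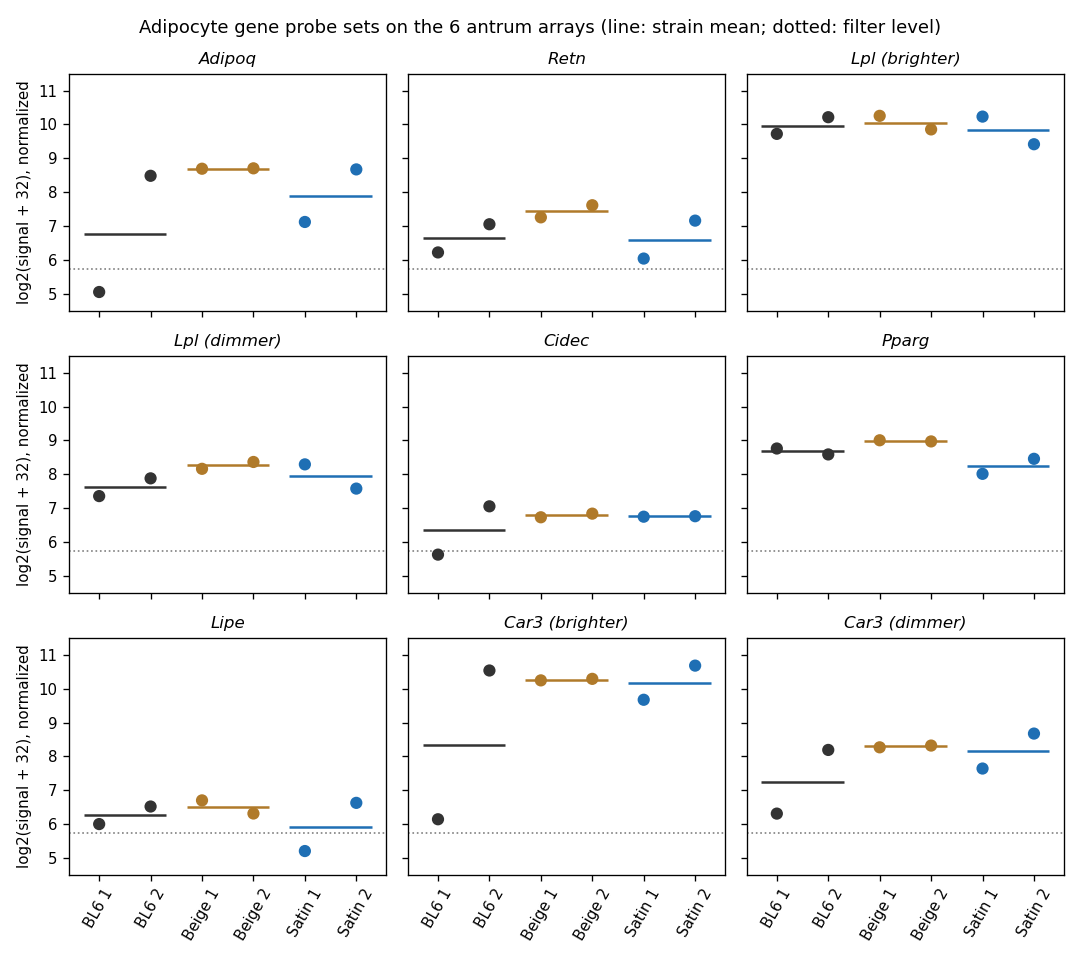
Normalized value, log2(signal + 32), of each of the 9 adipocyte probe sets on each of the 6 arrays, 1 panel a probe set, coloured by strain. BL6 1 is lowest for 5 of the 9, while the Pparg panel has its lowest points on the Satin arrays.

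Lpl encodes lipoprotein lipase, which frees fatty acids from circulating triglyceride. Its brighter probe set had signals of 639 and 973.8 for BL6, 1039.5 and 993.1 for Beige and 1496.6 and 808.9 for Satin. The normalized values of this probe set spanned only 0.84 log2 units, and the low array was Satin 2 (9.41), with BL6 1 (9.72) next. The dimmer probe set read 7.35 and 7.88 (BL6), 8.16 and 8.36 (Beige) and 8.29 and 7.58 (Satin), with BL6 1 lowest. Both probe sets placed Satin 1 among the higher arrays, where Adipoq and Retn were low. Satin minus both controls was -0.19 (SE 0.25, adjusted p = 0.834) and -0.01 (SE 0.24, adjusted p = 0.997) by limma. These signs hold on the normalized scale only: both were positive on the deposited scale (0.29 and 0.49).

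Cidec encodes a lipid droplet protein that drives droplet fusion in white fat cells. Its signals were 15.5 and 77.3 for BL6, 66.9 and 81.9 for Beige and 105.4 and 89.9 for Satin. BL6 1 stood alone at 5.62 on the normalized scale, and the other 5 arrays lay between 6.73 and 7.05, Satin 1 (6.75) included. The value on BL6 1 was below the filter level of 5.74, so the size of its difference depends on the pseudocount of 32. Satin minus both controls was 0.19 (SE 0.36, 95% interval -0.62 to 1.01, limma adjusted p = 0.886).

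Lipe encodes hormone-sensitive lipase, which breaks down stored fat. Its signals were 30.5 and 44.2 (BL6), 65.3 and 44.2 (Beige) and 6.4 and 77.4 (Satin). Satin 1 was the low array for Lipe, at 5.20, while the next lowest was BL6 1 and the highest Beige 1 (6.70), and the Satin arrays enclosed the range of the BL6 arrays. The value on Satin 1 was below the filter level of 5.74 and near the lowest of the scale, so the size of its difference depends on the pseudocount of 32. Satin minus both controls was -0.47 (SE 0.40, 95% interval -1.37 to 0.44, limma adjusted p = 0.727).

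Car3 encodes carbonic anhydrase III, an abundant cytosolic protein of fat cells. Its brighter probe set had signals of 36.5 and 1243.5 for BL6, 1032 and 1377.5 for Beige and 1044.5 and 1963.3 for Satin. BL6 1 differed by -4.15 log2 units from the median of the others, 17.7-fold lower on the log2(signal + 32) scale. The dimmer probe set had signals of 43.5 and 205.8 (BL6), 229.7 and 316 (Beige) and 233.8 and 471.2 (Satin), and put BL6 1 at -1.96 log2 units from that median. Both ordered the arrays with BL6 1 lowest, Satin 1 next and Satin 2 highest. Satin minus both controls was 0.87 (SE 0.93, 95% interval -1.24 to 2.98, adjusted p = 0.791) and 0.39 (SE 0.47, adjusted p = 0.818) by limma. Satin 2, the highest Car3 array, was also the array with the high liver genes, whose part in the Car3 value was not tested. Skeletal muscle genes had list means of 5.44 to 5.75, and 3 of 13 passed the filter, among them Ckm, muscle creatine kinase (signals of 29.8 to 103.9), and Tnni2, a fast muscle troponin (43.1 to 105.5). Their part in the Car3 values was not tested.

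Pparg, the transcription factor of the group, had a different order of arrays. Its signals were 312.1 and 279.8 for BL6, 404.2 and 527.3 for Beige and 312.7 and 397.5 for Satin. After normalization the values were 8.76 and 8.58 in BL6, 8.97 on the lower of the Beige arrays, and 8.01 and 8.46 in Satin. Both Satin arrays thus lay below all 4 control arrays, but only after normalization. On the deposited scale both Satin signals were above both BL6 signals and below both Beige signals, so the direction against BL6 was reversed there. The means were 8.67 ± 0.12, 8.99 ± 0.02 and 8.23 ± 0.31 in BL6, Beige and Satin (SD, n = 2 each). Satin minus both controls was -0.60 (SE 0.17, 95% interval -0.98 to -0.21), 1.51-fold lower, with a limma p of 0.00704 and an adjusted p of 0.194 that missed the threshold of 0.05. The same difference was -0.40 with each array centred on its median, -0.06 on the deposited scale and -0.02 scaled to the hybridization controls. On BL6 1 Pparg was 0.18 above the median of the other arrays, the 1 member probe set not below it there.

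**Figure D2:**
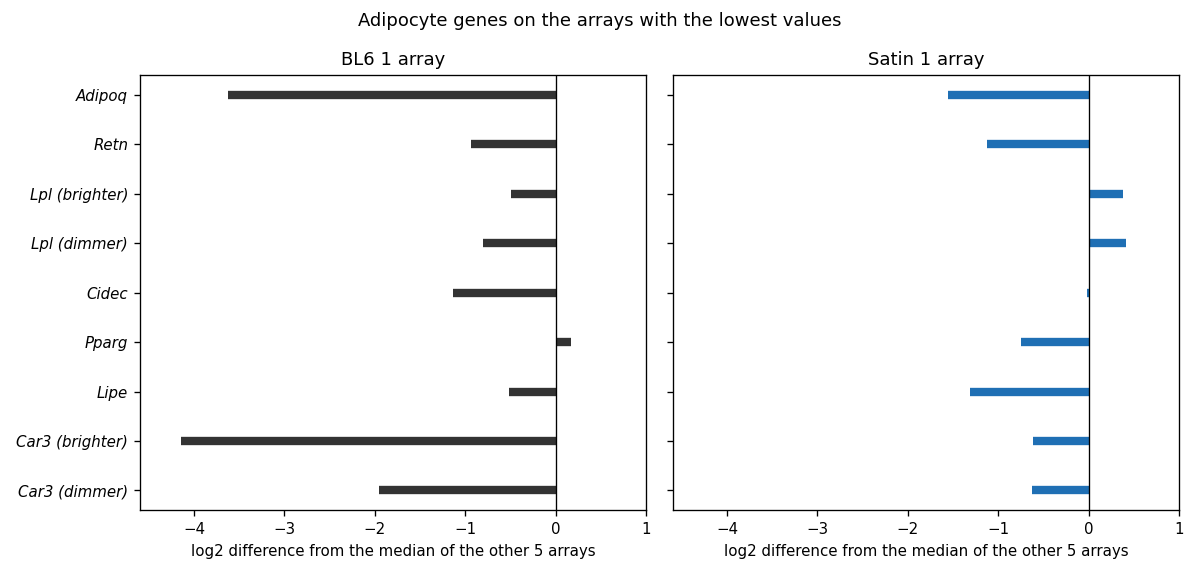
Difference of each member probe set from the median of the other 5 arrays, in log2 units, on BL6 1 and on Satin 1. On BL6 1 the bars of Car3 and Adipoq reach -4.15 and -3.62 and Pparg lies above 0, while on Satin 1 Adipoq (-1.55), Lipe (-1.32) and Retn (-1.12) reach lowest and both Lpl probe sets lie above 0.

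Adipoq and Car3 varied widely within strains. The pooled SD within strains was 1.54 for Adipoq and 1.84 and 0.88 for the Car3 probe sets, each larger than in at least 99.1% of the 15838 probe sets that passed the filter and were tested, whose median was 0.25. For Pparg it was 0.20, larger than in 33.6%. Of the 9 member probe sets, 8 were below the median of the other arrays on BL6 1 and 7 on Satin 1, where Cidec was at -0.014. The share of all probe sets below was not counted. The median difference from the other arrays was -0.94 and -0.63 over the members on BL6 1 and Satin 1. Over all probe sets tested it was 0.0045 and 0.018. On BL6 1 only 19 of all probe sets tested (0.12%) were more than 3 log2 units below, and these held Adipoq, Car3 and another fat cell gene, Thrsp. Of the rest, 9 were on the pancreas list and 3 had no single gene name. The others were probe sets of Ctrl, Sycn and 2210010C04Rik, named here after their values were seen. All of this rest read lower on replicate 1 of every strain than on any replicate 2 array. Ctrl read 5.08, 5.44 and 5.17 on BL6 1, Beige 1 and Satin 1, against 12.83, 9.46 and 11.67 on BL6 2, Beige 2 and Satin 2. BL6 1 was also the array with the low Gapdh ratio. Its pancreas genes were low (7.13), as they were on Satin 1 (7.19) and Beige 1 (7.61), where Adipoq read 7.12 and 8.69. The part of the Gapdh ratio or the pancreas genes in the low fat cell values of BL6 1 was not tested. After normalization Adipoq, Retn, Cidec and both Car3 probe sets were higher on replicate 2 than on replicate 1 in all 3 strains, but some differences were near 0. For Cidec in Satin it was 0.014, and the deposited signal was lower on replicate 2 (89.9 against 105.4). The share of all probe sets with such an order was not counted. For Adipoq the difference was 3.43 in BL6, 0.01 in Beige and 1.55 in Satin, and for the brighter Car3 probe set 4.40, 0.05 and 1.01.

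**Figure D3:**
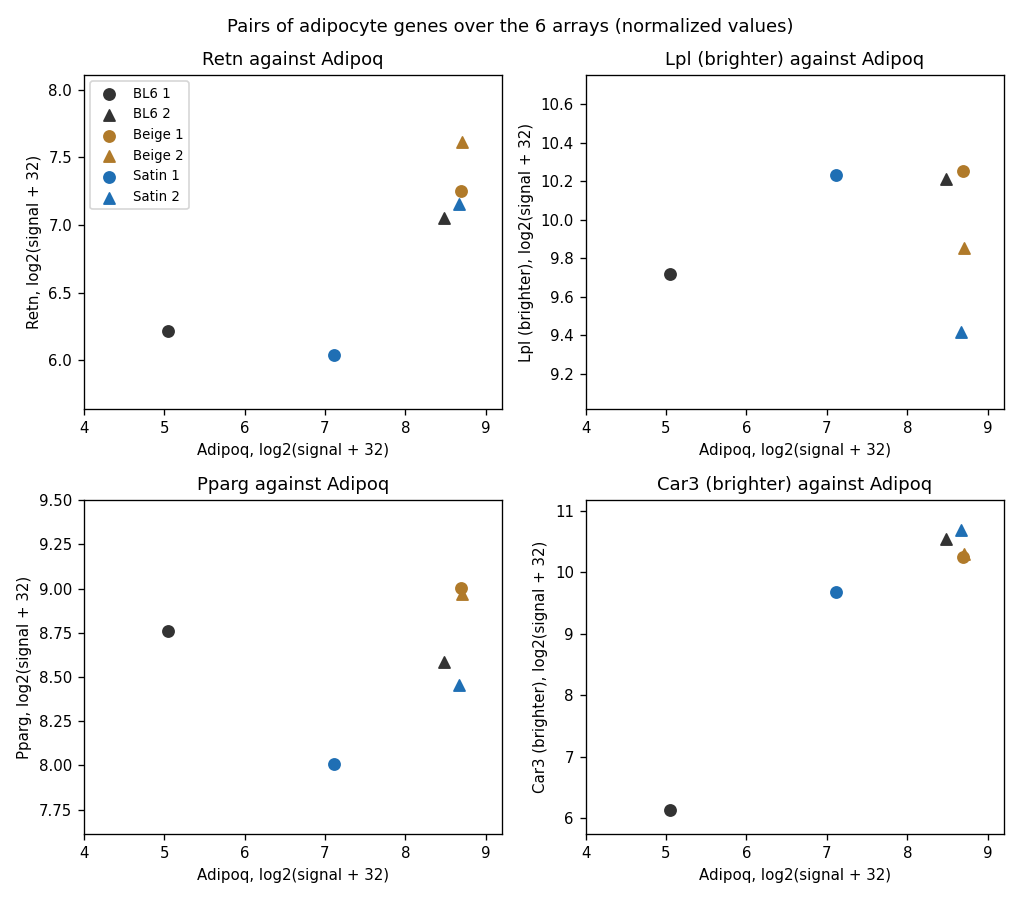
Retn, Lpl, Pparg and Car3 plotted against Adipoq over the 6 arrays, as log2(signal + 32) after normalization, with circles for replicate 1 and triangles for replicate 2 of each strain. BL6 1 lies at the lower left for Retn and Car3, but for Pparg the lowest point is Satin 1 and for Lpl it is Satin 2.

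None of the 9 member probe sets differed between strains in the limma fit at an adjusted p under 0.05. For Satin against both controls 0 of 9 were called, beside 1.02% of all probe sets tested, and 1 (Pparg) had an unadjusted p under 0.05. The median difference was -0.01 over the members and 0.02 over all probe sets. Pparg was the only one of the 9 whose Satin arrays lay below all 4 controls, and 11% of all probe sets did so. Without BL6 2, the brighter Car3 probe set was at 1.97. Without BL6 1 all 9 differences were below 0, Adipoq at -0.71 and Car3 at -0.23 and -0.09. Without Satin 2, Adipoq (-0.61) and the dimmer Car3 probe set (-0.14) were below 0 as well, so the direction for these genes turned with single arrays of both strains.

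The other comparisons share arrays with this one and with each other, and are given side by side. Satin minus BL6 was 1.13 for Adipoq (SE 0.91), -0.04 for Retn (SE 0.41), -0.44 for Pparg (SE 0.20), and 1.84 (SE 1.08) and 0.91 (SE 0.54) for Car3. No member was called in it, beside 0.537% of all probe sets, and the adjusted p of the 9 ran from 0.431 to 0.982. Without BL6 2, Adipoq was at 2.90 and Car3 at 4.04 and 1.86. Without BL6 1 these values became -0.60, -0.37 and -0.03. Scaling also mattered here. On the deposited scale 1 member was called, the dimmer of Car3 (1.45, limma adjusted p = 0.0308), beside 2679 of all 15838 probe sets. Scaling to the hybridization controls moved the median of all probe sets to 0.60, and 4758 of the 15838 were called. Of the members 4 were called there, namely Adipoq (1.76), the dimmer Lpl probe set (1.02) and both of Car3 (2.45 and 1.57). Retn and Pparg turned positive under both scalings.

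Satin minus Beige was -0.80 for Adipoq (SE 0.91), -0.84 for Retn (SE 0.41), -0.75 for Pparg (SE 0.20), and -0.09 (SE 1.08) and -0.14 (SE 0.54) for Car3. All 9 member differences were below 0 after quantile normalization, 7 with median centring, 6 without Satin 1 and 4 on the deposited scale. None was called, beside 0.657% of all probe sets, with adjusted p of 0.210 for Pparg to 0.991. Without Satin 1 Adipoq was at -0.03 and Retn at -0.27, and without Satin 2 they were at -1.56 and -1.36. After normalization the arrays of the strains did not overlap for Adipoq, Retn and Pparg, lower in Satin in each, as for 21.3% of all probe sets. The deposited signals overlapped for Retn, and for Adipoq Satin 2 had the highest of all.

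Beige minus BL6, a comparison of the control strains, was 1.93 for Adipoq (SE 0.91), 0.80 for Retn (SE 0.41), 0.31 for Pparg (SE 0.20), and 1.93 (SE 1.08) and 1.04 (SE 0.54) for Car3. All 9 differences were above 0, with a median of 0.65 against 0.00 for all probe sets, and 5 of 9 had Beige arrays above both BL6 arrays, as 16.7% of all probe sets did. None was called, beside 0% of all probe sets by limma (820 had an unadjusted p under 0.05, among them 1 member). Without BL6 1, 5 of the 9 differences were above 0 and 4 below, with Adipoq at 0.22, Retn at 0.39 and the brighter Car3 probe set at -0.27. Without BL6 2, Adipoq was at 3.70, Retn at 1.22, and the brighter Car3 probe set at 4.13.

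**Figure D4:**
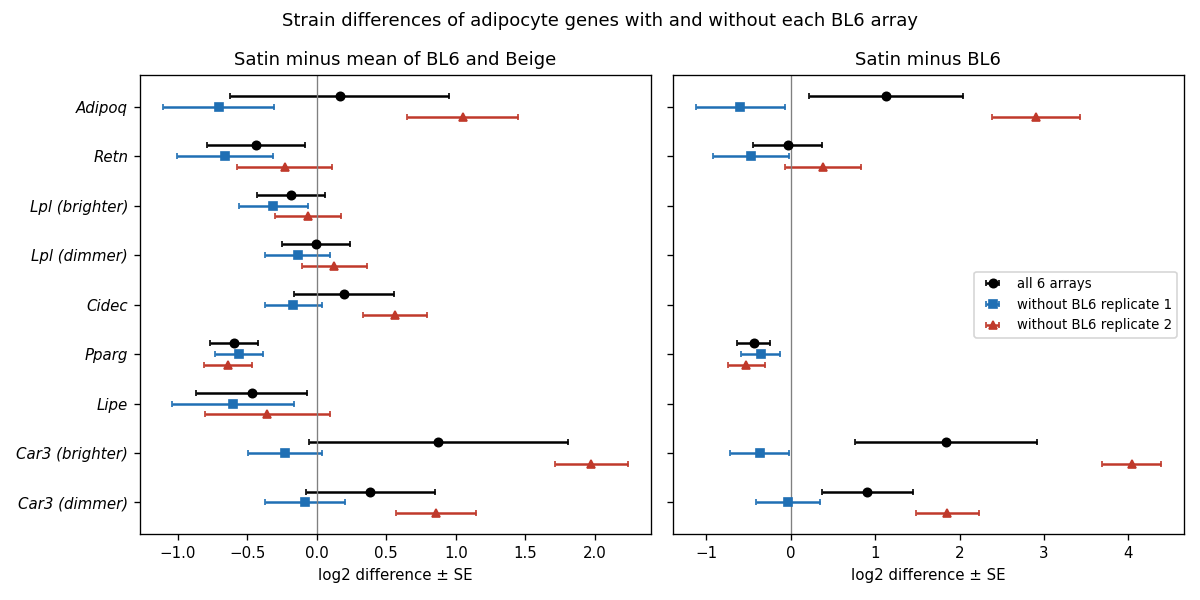
Fitted differences in log2 units with SE bars, for Satin minus the mean of both control strains (left, 9 probe sets) and Satin minus BL6 (right, only Adipoq, Retn, Pparg and the Car3 probe sets drawn), with all 6 arrays and without each BL6 array. Adipoq and Car3 lie below 0 without BL6 1 and above 0 without BL6 2, while Pparg stays below 0 in all 3 fits.

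Other genes of fat cells, taken from lists, were read beside the members. Of 25 other white adipocyte genes, 20 were on the array and 17 passed the filter. Fabp4, the fatty acid binding protein of adipocytes, had signals of 240 and 939.7 (BL6), 792.6 and 956 (Beige) and 880 and 1232.3 (Satin). Thrsp, a protein of fat synthesis, had 1.2 and 169.8 for BL6, 185.9 and 271.1 for Beige and 341.3 and 395.2 for Satin. BL6 1 was the low array for both, while Satin 1 was not low for Thrsp. Of the 17 genes, 13 were below the median of the other arrays on BL6 1, but only 2, Fabp4 and Thrsp, by more than 1 log2 unit. On Satin 1, 9 of the 17 were below and none by that much. Of all probe sets tested, 3.4% on BL6 1 and 2.16% on Satin 1 were below by more than 1 log2 unit. The median difference of the 17 genes was -0.20 on BL6 1 and -0.08 on Satin 1, against 0.0045 and 0.018 for all probe sets. Lep, the gene of leptin, had signals of 1.2 to 25.1 and Adig, an adipocyte membrane protein, 1.1 to 14, and both failed the filter, so the label of fat cells rests on part of the usual markers. Ucp1, the uncoupling protein of brown fat, also failed it, at 2.4 to 30.1.

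None of the 17 white adipocyte genes was called between Satin and both controls. The genes with the smallest p were Apoc1, an apolipoprotein (0.65, limma adjusted p = 0.571), and Thrsp (1.01, adjusted p = 0.598). Apoc1 had signals of 49.9 on Satin 1 and 176.2 on Satin 2, the array with the high liver genes, and without Satin 2 its difference was -0.04. The part of the liver genes in the Apoc1 value was not tested. Thrsp was called without BL6 2 (1.76, adjusted p = 0.00348), as deposited (1.46, 0.0456) and with scaling to the hybridization controls (1.52, 0.0260), and it was at 0.29 at the lowest on leaving out 1 array. Of the brown adipocyte list, 0 of 5 were called, with Fabp3, a fatty acid binding protein, at -0.34 and Elovl3, a fatty acid elongase, at -0.39 (adjusted p of 0.769 and 0.772). Median differences of these lists were 0.13 and -0.09, against 0.02 for all probe sets.

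**Figure D5:**
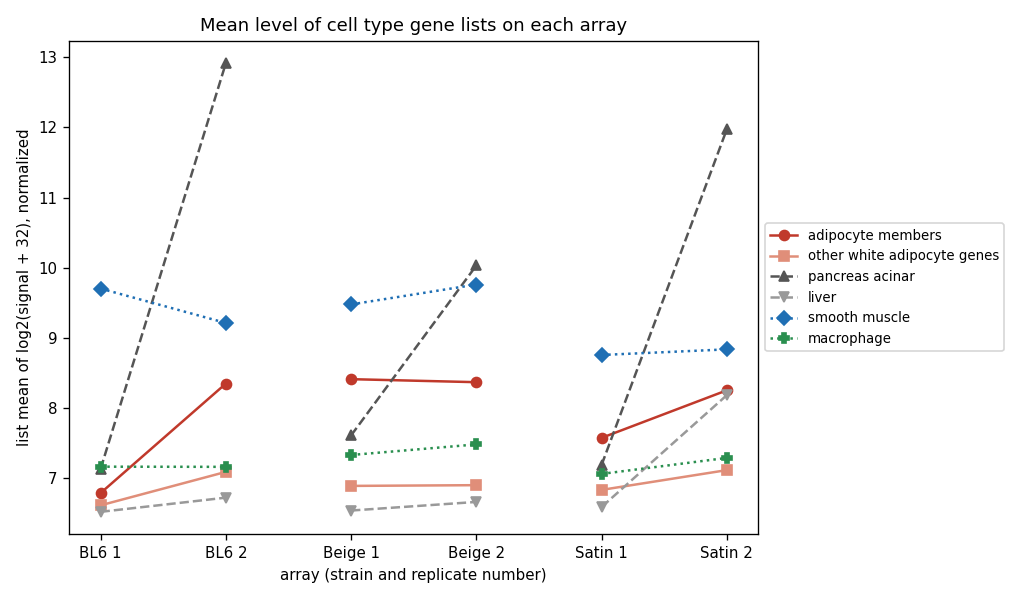
Mean log2(signal + 32) of gene lists on each array after normalization, with a line joining the 2 arrays of a strain. The mean of the 7 member genes is lowest on BL6 1 (6.79) and Satin 1 (7.57) and 8.25 to 8.41 elsewhere, while the pancreas list is low on replicate 1 of all 3 strains.

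The pathways around each member were followed in the same comparison. Of receptors and partners of the adipokines, 0 of 6 tested were called, with Retnla, a resistin-like secreted protein, at 0.74 and Cfb, complement factor B, the substrate of Cfd, at -0.43 (adjusted p of 0.521 and 0.692). Of genes that handle lipoprotein lipase, 0 of 9 were called. There Apoc3, an apolipoprotein that inhibits the enzyme, stood at 1.58 (SE 0.37, adjusted p = 0.107) and Sel1l, a factor for its maturation, at -0.34 (adjusted p = 0.609). Apoc3 had signals of 78.4 on Satin 1 and 186.3 on Satin 2, and the part of the liver genes of Satin 2 was not tested. Of lipid droplet and lipolysis genes, 0 of 12 were called, with Bscl2, the gene of seipin, at 0.57 (adjusted p = 0.172) and Cav1, a caveolar coat protein, at -0.70 (adjusted p = 0.317). Of Pparg partners and regulators, 0 of 12 were called, with Rxrb, a retinoid X receptor, at 0.62 and Cebpb, an early factor of adipogenesis, at 0.35 (adjusted p of 0.501 and 0.526). Of the genes named here, Retnla, Apoc3, Bscl2, Rxrb and Cebpb were called as deposited (1.24, 1.92, 1.11, 1.04 and 0.83, adjusted p of 0.00558 to 0.0355) and with scaling to the hybridization controls (1.29, 1.95, 1.16, 1.09 and 0.87), where the medians of all probe sets were 0.44 and 0.47.

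Called genes appeared in 2 of these lists, carbonic anhydrases and fat synthesis. Car9, a membrane-bound carbonic anhydrase, had signals of 414.1 and 532 (BL6), 544.6 and 462.3 (Beige) and 2032.1 and 1408.1 (Satin). It rose by 1.24 (SE 0.21, limma adjusted p = 0.0323) and was the 1 of 7 carbonic anhydrases tested that was called. Scd1, the stearoyl-CoA desaturase, had signals of 122.7 and 330 for BL6, 738 and 574.5 for Beige and 1841.2 and 3010.5 for Satin, and rose by 2.12 (SE 0.36, adjusted p = 0.0324). Me1, malic enzyme, which supplies NADPH to fat synthesis, had 1314.3 and 1332.3 (BL6), 1667.2 and 2216.6 (Beige) and 3379.6 and 4047.7 (Satin), and rose by 0.78 (SE 0.14, adjusted p = 0.0352). For these 3 genes, named because they were called, both Satin arrays were above all control arrays, as for 11.7% of all probe sets tested. Scd1 and Me1 were 2 of 12 synthesis genes tested, beside 0.347% of all probe sets called higher. The calls were not stable: without Beige 1, without Beige 2, without Satin 1 or without Satin 2 each of the 3 missed the threshold, and Car9 also without BL6 1, with adjusted p up to 0.352, 0.200 and 0.303 for Car9, Scd1 and Me1. Under the replicate block Me1 also missed it (0.78, adjusted p = 0.0552). The order of arrays in these genes was not that of Adipoq and Car3, for which Satin 1 was among the low arrays.

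Lists of other cells that the tissue could hold gave the following counts between Satin and both controls. No gene was called among 11 of endothelium, 12 of macrophages, 3 of skeletal muscle, 4 of mesothelium, 11 of pancreas, 8 of liver and 12 of fibroblasts and matrix. Of smooth muscle 3 of 15 were lower, of antral epithelium 3 of 12 were lower, and of lymphoid cells 2 of 7 were higher. Of all probe sets tested, 0.669% were called lower and 0.347% higher. The macrophage list, of cells that also make Lpl, averaged between 7.06 on Satin 1 and 7.48 on Beige 2. Smooth muscle averaged 8.76 and 8.84 on the Satin arrays and 9.21 to 9.76 on the controls. The part of these lists in the Pparg and Lpl values was not tested.

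The genes whose pattern over the 6 arrays was most like the mean of the 7 member genes were ranked among 2742 genes that spanned at least 1 log2 unit. By Pearson's r, as a description over arrays that share the low value of BL6 1, they were Tbxas1 (0.994), Il24 (0.994), Ap1g1 (0.994), Il16 (0.989), Wee1 (0.988), Iqcc (0.978), Gfus (0.974) and Sec14l2 (0.965). Over the 5 arrays without BL6 1 their r ran from 0.838 to 0.987. Tbxas1, thromboxane synthase, read 5.11 and 6.47 for BL6, 6.65 and 6.63 for Beige and 5.95 and 6.45 for Satin, an order that the choice by r fixes. No gene of the white adipocyte list was among these 8.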

How the data were processed

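Per the labels' protocols, Trizol was used to obtain total RNA, from which biotinylated cRNA was made. The deposited table holds intensities on a linear scale for 22690 probe sets on 6 arrays, and 0 sample columns were left unused. For the algorithm, the scaling and the detection calls, the sources used here give nothing. The 64 control probe sets were left out. Of the rest, 20380 carried a single symbol in the platform annotation, 691 several and 1555 were not listed.

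Values were taken as log2(signal + 32), then quantile normalized. Probe sets with a mean in the lowest 30% (below 5.74) were left out, which left 15838, all 9 member probe sets among them. The strains were compared by limma 3.58.1 (R 4.3.3; lmFit, eBayes with trend, two-sided), in 1 fit of 6 arrays with 3 residual degrees of freedom and 8.95 after moderation. Calls are Benjamini-Hochberg adjusted p under 0.05 over all probe sets tested. The fit was tested on simulated data. The 2 arrays per strain limit the precision.

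The members and the lists were chosen with earlier results of these data known. The text names all members, and of the lists around them the called genes (up to 4) or, where none was called, the 2 with the smallest p (1 probe set a gene, the brightest). The lists of other cell types are given by counts and, for some, by list means. Outside this rule, Fabp4, Lep, Adig and Ucp1 of the fat cell lists were named. So were Gkn1, Muc5ac, Gast, Atp4a, Ckm and Tnni2 of the other cell types. The 8 genes most like the members were taken by Pearson's r. Deviations of same-numbered arrays from their strain means correlated at 0.14, 0.31 and 0.21 over the 3 pairs of strains. The replicate numbers in the titles were therefore taken as a possible pairing, from the data and not from the labels. The main fit held strain only, so the tests given above are unpaired, and the pairing entered only as the replicate block among the alternatives. Alternatives covered the pseudocount, normalization, filter, trend, probe set choice, arrays in the fit, replicate block, Gapdh ratio and leaving out each array.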

Additional observations from a re-analysis of the deposited data

How the results depend on the processing

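Under the replicate block 0 members were called in each of the 4 comparisons, as without it, and the pairing changed no member call and, of the other genes named, ended that of Me1 alone; all calls went from 161 to 143 (Satin against both controls), 85 to 65 (against BL6), 104 to 81 (against Beige) and stayed at 0 (Beige minus BL6). All calls against both controls numbered 2016 as deposited, 3479 scaled to the hybridization controls, 101 with no filter, 48 with no trend and 65 with the Gapdh ratio as covariate. Calls higher in Satin were 1946 of the 2016, 3404 of the 3479 and, with median centring, 60 of 112, against 55 of 161; against BL6 these were 2628 of 2679, 4711 of 4758 and 41 of 71 (main 29 of 85), and against Beige 153 of 198, 168 of 213 and 37 of 79 (main 31 of 104). All calls against BL6 numbered 48 with no filter, 24 with no trend, 45 with the Gapdh covariate and 33 with only these strains in the fit. Against Beige they numbered 56 with no filter, 31 with no trend and 172 with only these strains. For Beige minus BL6, 12 were called with the Gapdh covariate. Leaving out 1 array gave 48 to 403 calls against both controls, 33 to 407 against BL6, 9 to 173 against Beige and 0 to 11 for Beige minus BL6. The number of member calls moved against BL6 to 1 as deposited and 4 with the hybridization controls. Without 1 array there were 0 to 1 member calls against both controls, 0 to 3 against BL6, 0 to 0 against Beige and 0 to 1 for Beige minus BL6.

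Of 11 other settings, Car9 and Scd1 lost their call in 3 and Me1 in 5. Some signs turned. Against both controls Adipoq was -0.012 with pseudocount 100, and the dimmer Lpl was 0.16 with median centring. As deposited Lpl was 0.29 and 0.49, Fabp3 0.17 and Sel1l 0.19, and with the hybridization controls these were 0.34, 0.53, 0.22 and 0.24. With the Gapdh covariate, whose value is low on BL6 1 alone, Adipoq was -1.93, Cidec -0.69, Car3 -1.83 and -0.76, Thrsp -0.78 and Retnla -0.14. Against BL6, Retn was 0.38 and Pparg 0.23 as deposited, and 0.48 and 0.34 with the hybridization controls; with the Gapdh covariate Adipoq was -1.87 and Car3 -2.04 and -0.73. Against Beige, Car3 was 0.26 and 0.28 as deposited, 0.24 and 0.26 with the hybridization controls, and its dimmer probe set 0.0067 with median centring. For Beige minus BL6, Car3 was -0.41 with the Gapdh covariate.

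Leaving out 1 array turned signs against both controls over the ranges -0.71 to 1.05 (Adipoq), -0.97 to 0.12 (Retn), -0.60 to 0.22 and -0.36 to 0.35 (Lpl), -0.17 to 0.56 (Cidec), -1.16 to 0.24 (Lipe), -0.23 to 1.97 and -0.14 to 0.90 (Car3), -0.042 to 1.32 (Apoc1), -0.89 to 0.041 (Cfb) and -0.72 to 0.04 (Fabp3). Against BL6 the ranges were -0.60 to 2.90 (Adipoq), -0.58 to 0.51 (Retn), and -0.37 to 4.04 and -0.033 to 1.86 (Car3), against Beige -0.60 to 0.42 and -0.65 to 0.38 (Car3), and for Beige minus BL6 -0.27 to 4.13 (Car3). Beyond the construction of each setting the cause was not tested. Signals near the lowest values limit what Adipoq and Cidec on BL6 1 and Lipe on Satin 1 can show, since no detection calls were used here.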
